A study of Mus musculus with 8 samples.

Results

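The genes described here are Cd44, which encodes the main cell-surface receptor for hyaluronan, and those for the enzymes and proteins that make and break down this polysaccharide. They were chosen by symbol: Cd44, the synthases Has1, Has2 and Has3, the hyaluronidases Hyal1 and Hyal2, and Cemip. All 7 have a row among the 41730 rows of the deposited counts, and 6 were among the 13393 genes tested. RNA-seq libraries were made from spheroids of 4T1, a mouse mammary carcinoma line that came from a BALB/c mouse. The cells carried a lentiviral short hairpin RNA against Tlr7 (shTlr7, n = 4) or a lentiviral scrambled hairpin (shCtrl, n = 4), and both groups were cultured as hanging-drop spheroids. Both groups were thus transduced, and no library of untransduced cells was analysed here.

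Hyaluronan is a long, unsulfated chain of repeating glucuronic acid and N-acetylglucosamine units. It is made at the plasma membrane by the HAS enzymes from UDP-linked sugars, extruded into the matrix, and held at the cell surface by receptors such as CD44. Its breakdown begins outside the cell or at its surface, where HYAL2, CEMIP and CEMIP2 act, and is completed in lysosomes by HYAL1 and exoglycosidases. In mammary carcinoma, CD44 is widely used as a marker of cells with mesenchymal and tumour-initiating traits.

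Library totals ranged from 18.1 to 93.8 M counts. In a principal component analysis of 1000 variable genes, the groups separated on the first axis (85.6% of variance), and replicate 4 of each group stood apart from replicates 1 to 3 on the second (4.85%). Tlr7 had 0, 4, 3 and 0 counts in shTlr7 replicates 1 to 4, against 2, 3, 2 and 2 counts in shCtrl replicates 1 to 4. At this depth a lower level of the targeted transcript was not detectable (pooled ratio 0.475, exact 95% interval 0.15 to 1.43, from counting error alone). Of 6 epithelial markers, Krt5 was at 0 in all 8 libraries and the other 5 were called, in both directions (edgeR adjusted p under 0.05, all 8 libraries). Of all tested genes, 56.1% were called by the same rule. Epcam and Cdh1 were higher, at log2 fold changes of 0.15 and 0.20, and Krt8 and Krt18 were lower, at -0.37 and -0.47. The basal keratin gene Krt14 was lower too, with 3.26 ± 1.08 CPM (counts scaled to library size by TMM) in shTlr7 and 36.2 ± 2.95 CPM in shCtrl (SD, n = 4 each; log2 fold change -3.50, edgeR adjusted p = 1.91e-07). The summed level of the 6 markers, nearly all of it from Epcam, Cdh1, Krt8 and Krt18, was 3098 to 3335 CPM in shTlr7 and 3656 to 3834 CPM in shCtrl. Leukocytes also carry CD44, and of 7 leukocyte and macrophage markers 5 stayed under 1 CPM in every library. The pan-leukocyte marker Ptprc averaged 0.179 ± 0.054 CPM in shTlr7 and 0.135 ± 0.0729 CPM in shCtrl (SD, n = 4 each), and Adgre1 and Lyz2 were at 0 throughout. The summed level of these 7 markers was 31.3 to 44.4 CPM in shTlr7 and 23.2 to 28.1 CPM in shCtrl, most of it from the lysosomal protein Cd68. The 2 of them that were tested went opposite ways, Cd68 higher (log2 fold change 0.72, edgeR adjusted p = 1.41e-04) and the macrophage receptor gene Csf1r lower (-2.17, edgeR adjusted p = 4.39e-06), with 0.241 ± 0.0554 CPM in shTlr7 and 1.14 ± 0.2 CPM in shCtrl (SD, n = 4 each). The part of these markers in the results on hyaluronan genes was not tested.

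The RefSeq promoter table for GRCm38.p6 held entries for 5 of the 7 genes. Below are the 250 bases before the listed start of Cd44, which fell, of Hyal1, whose counts rose, and of Hyal2, which passed the test in neither direction. Genes of different outcome can thus be read side by side, though the rise cannot be assigned to Hyal1 alone, as described below. The Cd44 window is chr2:102901666-102901915 (minus strand), which reaches just inside the RefSeq span of the gene. The others are chr9:107576700-107576949 for Hyal1 (plus strand) and chr9:107568913-107569162 for Hyal2 (plus strand, inside the RefSeq span of the gene, which has further starts upstream). Each is written 5′ to 3′ along its gene, and capitals mark a match, on either strand, to one of 6 motifs.
Cd44: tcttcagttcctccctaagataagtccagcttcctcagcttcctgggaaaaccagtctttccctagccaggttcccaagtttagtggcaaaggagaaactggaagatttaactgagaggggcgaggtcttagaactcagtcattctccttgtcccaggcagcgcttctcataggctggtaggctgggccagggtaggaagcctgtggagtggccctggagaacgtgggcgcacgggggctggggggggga
Hyal1: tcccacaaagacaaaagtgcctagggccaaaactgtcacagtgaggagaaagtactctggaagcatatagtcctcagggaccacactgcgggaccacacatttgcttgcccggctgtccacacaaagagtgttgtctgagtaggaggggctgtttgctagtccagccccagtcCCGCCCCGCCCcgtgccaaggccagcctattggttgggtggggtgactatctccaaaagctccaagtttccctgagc
Hyal2: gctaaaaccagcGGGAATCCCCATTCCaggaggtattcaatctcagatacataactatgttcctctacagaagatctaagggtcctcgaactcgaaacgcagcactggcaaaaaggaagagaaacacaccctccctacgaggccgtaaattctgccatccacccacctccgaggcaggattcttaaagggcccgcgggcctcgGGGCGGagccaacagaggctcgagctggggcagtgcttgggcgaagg
The motifs were AP-1 (TGANTCA), the NF-kB consensus, the interferon regulatory factor consensus, SP1 (GGGCGG), TCF/LEF (CTTTGNT) and TEAD (CATTCC). No match lay in the Cd44 window. The Hyal1 window held 2 SP1 matches, starting 77 and 72 bases before the start and sharing 1 base. The Hyal2 window held 1 NF-kB match 238 bases, 1 TEAD match 229 bases and 1 SP1 match 47 bases before the start, the NF-kB and TEAD matches sharing 1 base. Over 32851 windows of the same length, 32.7% held the SP1 letters, 12.6% TEAD, 7.25% NF-kB, 6.75% AP-1, 16% TCF/LEF and 2.98% the interferon regulatory factor consensus. These matches describe sequence only.

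The receptor and the most abundant synthase were both lower in spheroids with the Tlr7 hairpin. Cd44 was 1.49-fold lower and Has2 was 2.63-fold lower, and Has3, which was expressed at a low level, was 2.17-fold lower. Hyal1 was 1.24-fold higher, and Has1 and Hyal2 did not pass the test. The test was edgeR's quasi-likelihood test across all 13393 tested genes, and a gene was called where the Benjamini-Hochberg adjusted p was under 0.05. By that rule 3 members were lower and 1 was higher of the 6 tested. Over all tested genes 56.1% were called, 26.8% as lower and 29.3% as higher, so a call alone sets none of these genes apart. The CPM ranges of the groups were separate for 3 of the 6, all lower in shTlr7. Over all tested genes they were separate for 49.8%, with 23.8% lower and 26.0% higher in shTlr7. Without both libraries numbered 4, the same 3 genes were lower and 2 were higher, Has1 joining Hyal1. Calls over all tested genes also rose there, to 4213 higher and 4046 lower from 3927 higher and 3590 lower. In bulk RNA, fewer cells that express a gene and less of its RNA per cell cannot be told apart.

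**Figure D1:**
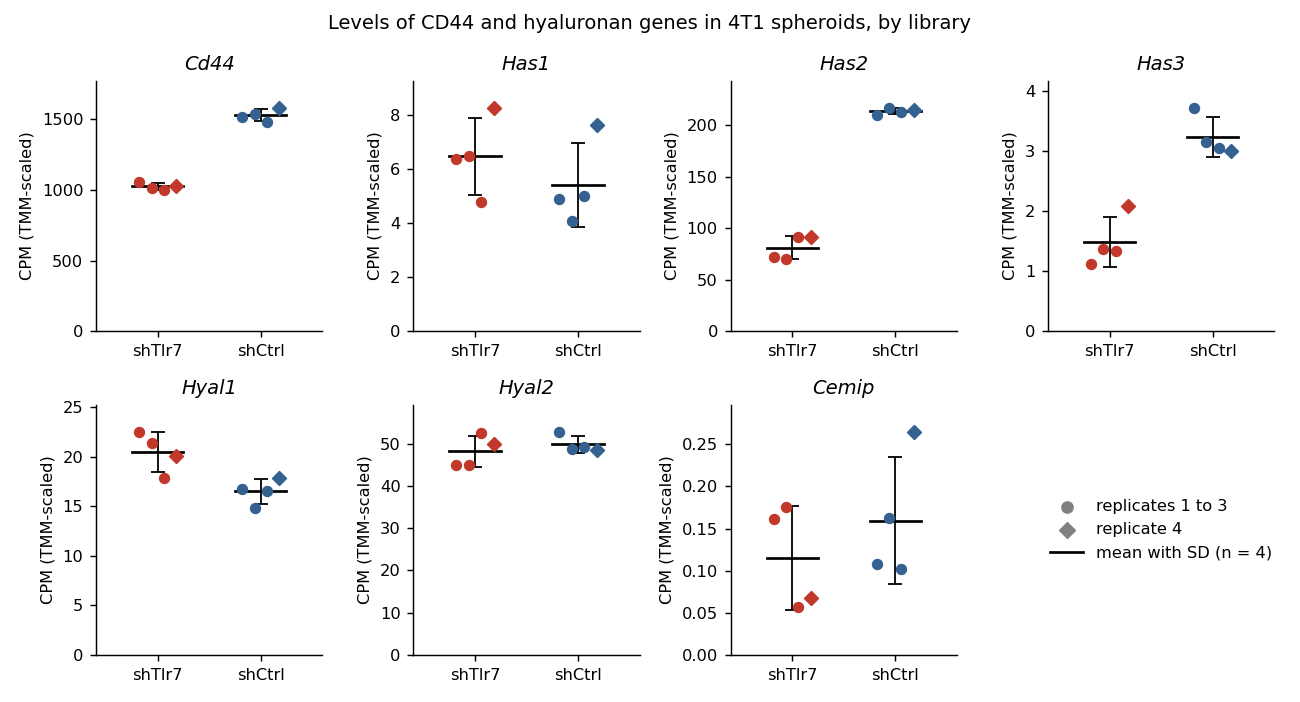
Level of each of the 7 genes in CPM (TMM-scaled, linear axis from 0), with 1 point per library, diamonds for replicate 4, and the mean and SD of 4 libraries in black. The shTlr7 points of Cd44, Has2 and Has3 all lie below the shCtrl points, and those of Has1, Hyal1, Hyal2 and Cemip overlap them.

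Cd44 (chr2:102811141-102901669, minus strand, GRCm38.p6) had 1057, 1016, 998 and 1026 CPM in shTlr7 replicates 1 to 4, against 1515, 1537, 1479 and 1580 CPM in shCtrl replicates 1 to 4. Every shTlr7 library was below every shCtrl library, and the spread within each group was small beside the gap. The log2 fold change was -0.58 ± 0.04 (SE; edgeR adjusted p = 5.78e-08). Of all tested genes, 9.45% had a lower log2 fold change. CD44 RNA is spliced into a standard form and variant forms, and the GENCODE M21 basic set lists 8 coding transcripts of the gene. The deposited values are sums per gene, so these forms were not told apart.

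Has2 (chr15:56665627-56694546, minus strand) encodes the synthase that is essential for heart development in the mouse embryo. It had 72.3, 70.3, 91.2 and 91.2 CPM in shTlr7 replicates 1 to 4, against 210, 217, 213 and 215 CPM in shCtrl replicates 1 to 4. The shCtrl libraries lay close together, while the shTlr7 libraries fell into a lower pair, replicates 1 and 2, and a higher pair, replicates 3 and 4, all far below shCtrl. The log2 fold change was -1.40 ± 0.08 (SE; edgeR adjusted p = 1.40e-07), and 2.28% of tested genes had a lower one. Has2os, an antisense transcript, shares 182 exon bases with Has2, which is 4.30% of the exon bases of Has2. Reads from the shared stretch could belong to either gene, since the strand setting of the counting is not given in the sources used here. Has2os averaged 1.10 ± 0.0754 CPM in shTlr7 and 1.35 ± 0.346 CPM in shCtrl (SD, n = 4 each), and did not pass the test (log2 fold change -0.33, edgeR adjusted p = 0.161).

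Has3 (chr8:106870242-106882902, plus strand), a synthase known to make shorter chains than Has2, was read from 21 to 133 counts per shTlr7 library and 60 to 156 per shCtrl library. Its level was 1.13, 1.37, 1.34 and 2.08 CPM in shTlr7 replicates 1 to 4, against 3.72, 3.16, 3.06 and 3.00 CPM in shCtrl replicates 1 to 4. The groups did not overlap, and shTlr7 replicate 4 was nearest to shCtrl. The log2 fold change was -1.12 ± 0.17 (SE; edgeR adjusted p = 1.07e-04). Of its exon bases, 5.52% are shared with Chtf8 on the opposite strand, whose row held 0 counts in every library. As the strand setting and the handling of shared exons are not given, the gene to which reads of that stretch were counted is not known.

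Has1 (chr17:17833691-17855589, minus strand), the third synthase, had 6.38, 6.47, 4.76 and 8.26 CPM in shTlr7 replicates 1 to 4, against 4.91, 4.07, 5.00 and 7.64 CPM in shCtrl replicates 1 to 4. The groups overlapped, and replicate 4 was the highest library in each. The log2 fold change was 0.28 ± 0.21 (SE; edgeR adjusted p = 0.275), with a 95% interval from -0.18 to 0.73. The call changed with the libraries and the tool used. With both libraries numbered 4 left out it was 0.38 (edgeR adjusted p = 0.0123), and with shCtrl replicate 4 alone left out it was 0.49 (edgeR adjusted p = 0.0204). Without shCtrl replicate 2, by contrast, it was 0.13 (edgeR adjusted p = 0.635), and without shTlr7 replicate 4 it was 0.15 (edgeR adjusted p = 0.536). With limma-voom and quality weights Has1 passed the threshold at 0.42 (limma adjusted p = 0.0125).

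**Figure D2:**
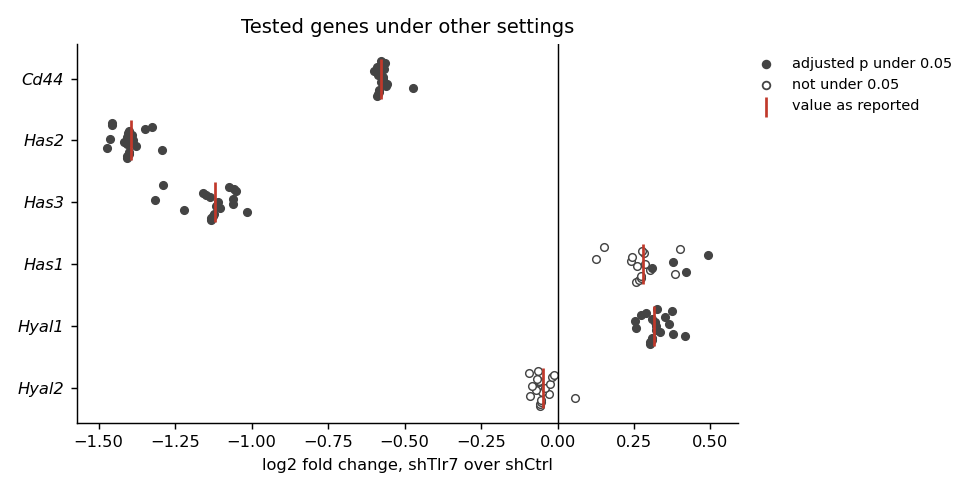
Log2 fold change of shTlr7 over shCtrl for the 6 tested genes, with 1 point per alternative scaling, filter, tool, block, depth, summing of copies or set of libraries, filled where the adjusted p was under 0.05, and a red line at the value as reported. Points of Cd44, Has2, Has3 and Hyal1 are all filled, those of Hyal2 all open, and those of Has1, from 0.13 to 0.49, are mixed. The adjusted p threshold of 0.01 is not drawn. Nor is the test against a 1.5-fold change, which Cd44 and Hyal1 did not pass.

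Levels of different genes were compared per kilobase of exon (RPKM, from TMM-scaled library sizes and the union of GENCODE M21 basic exons). Summed over the synthases, the level was 20.3, 19.9, 24 and 25.8 RPKM in shTlr7 replicates 1 to 4, against 52.5, 53.7, 53.1 and 54.8 RPKM in shCtrl replicates 1 to 4. The mean sum in shTlr7 was thus 0.42 times that in shCtrl. Has2 made up most of the sum in every library. Its share was 85.2% ± 3.02 in shTlr7 and 94.2% ± 1.26 in shCtrl (SD, n = 4 each), with no overlap between 83.4 to 89.7% in shTlr7 and 92.5 to 95.5% in shCtrl. Has1 held 9.47 to 15.5% in shTlr7 and 3.62 to 6.66% in shCtrl, and Has3 held 1.02% ± 0.189 in shTlr7 and 0.949% ± 0.111 in shCtrl. The larger share of Has1 in shTlr7 went with a smaller sum, since the level of Has1 itself was 3.09 ± 0.682 RPKM in shTlr7 and 2.58 ± 0.74 RPKM in shCtrl.

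**Figure D3:**
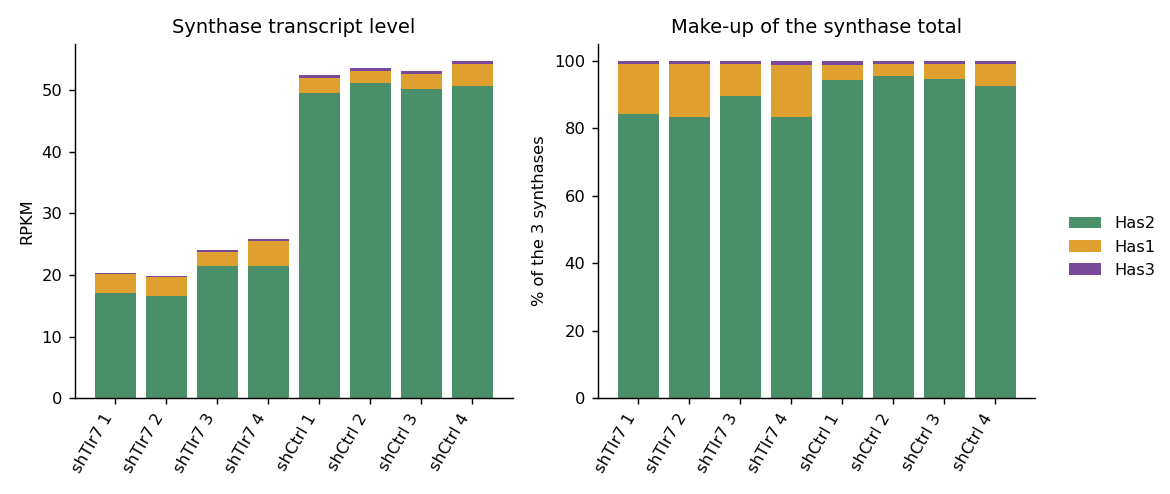
Left, summed level of Has2, Has1 and Has3 in RPKM for each library, shTlr7 replicates 1 to 4 and then shCtrl replicates 1 to 4. Right, the share of that sum held by each synthase in percent. The shTlr7 sums lie between 19.9 and 25.8 RPKM and the shCtrl sums between 52.5 and 54.8 RPKM, and Has2 holds over 83% of each.

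Hyal2 (chr9:107567873-107572778, plus strand) encodes the GPI-anchored hyaluronidase that cuts long chains at the cell surface. It had 45.02, 45.03, 52.6 and 49.9 CPM in shTlr7 replicates 1 to 4, against 52.8, 48.8, 49.1 and 48.4 CPM in shCtrl replicates 1 to 4. The groups overlapped. The log2 fold change was -0.05 ± 0.06 (SE; edgeR adjusted p = 0.512), with a 95% interval from -0.17 to 0.08, and it was 0.06 when scaled by library size only. Per length, Has2 stood at 1.29 ± 0.0934 times the level of Hyal2 in shTlr7 and 3.31 ± 0.17 times in shCtrl (SD, n = 4 each).

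Hyal1 (chr9:107576950-107581699, plus strand), which encodes the lysosomal hyaluronidase, lies downstream of Hyal2. It had 22.6, 21.4, 17.9 and 20.05 CPM in shTlr7 replicates 1 to 4, against 16.8, 14.9, 16.5 and 17.9 CPM in shCtrl replicates 1 to 4. The groups met at 17.9 CPM, where shTlr7 replicate 3 lay just under shCtrl replicate 4. The log2 fold change was 0.31 ± 0.08 (SE; edgeR adjusted p = 0.00493). This rise cannot be assigned to Hyal1 alone, because 50.8% of its exon bases are also exon bases of Naa80 and 4.21% of Hyal3, both on the same strand. Naa80, an actin N-acetyltransferase gene, averaged 24.7 ± 1.41 CPM in shTlr7 and 18.6 ± 2.17 CPM in shCtrl (log2 fold change 0.41, edgeR adjusted p = 6.24e-04). Hyal3, a further hyaluronidase gene of the cluster, averaged 2.49 ± 0.242 CPM in shTlr7 and 1.36 ± 0.222 CPM in shCtrl (SD, n = 4 each; log2 fold change 0.89, edgeR adjusted p = 3.49e-04). How the authors' counting treated reads in shared exons is not given in the sources used here.

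Cemip (chr7:83932857-84086693, minus strand), whose product binds hyaluronan and is needed for its breakdown in skin fibroblasts, was close to absent. It had 3, 17, 2 and 2 counts in shTlr7 replicates 1 to 4, against 2, 8, 2 and 6 counts in shCtrl replicates 1 to 4, and was too low to be tested. Pooled over each group, 24 counts in shTlr7 stood against 18 in shCtrl. Scaled by TMM library sizes, the ratio was 0.814 (95% interval 0.424 to 1.59, two-sided exact binomial p = 0.527). This interval reflects counting error alone. Of the 24 counts, 17 came from shTlr7 replicate 2, the most deeply sequenced library. A difference was not detectable at this depth.

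The order of mean levels per length was the same in both groups. Cd44 stood first, with 181 ± 4.34 RPKM in shTlr7 and 270 ± 7.46 RPKM in shCtrl. Has2 followed with 19.2 ± 2.71 RPKM in shTlr7 and 50.4 ± 0.681 RPKM in shCtrl, and then Hyal2 with 14.8 ± 1.15 RPKM in shTlr7 and 15.3 ± 0.633 RPKM in shCtrl. Hyal1 had 5.42 ± 0.531 RPKM in shTlr7 and 4.37 ± 0.332 RPKM in shCtrl, followed by Has1. Has3 had 0.232 ± 0.0652 RPKM in shTlr7 and 0.507 ± 0.0516 RPKM in shCtrl (SD, n = 4 each), and Cemip stood below it. Within each group, and with these union exon lengths, the ranges of neighbouring genes in this order did not overlap. The longest coding transcript of Hyal2 has 2968 bases, against 3258 in the union, while Has2 has 4237 in both. With that shorter length the Hyal2 levels rise, and in shTlr7 the ranges of Has2 and Hyal2 overlap, with Has2 still higher on average. Separation of the other genes was not checked with such lengths, and the level of Hyal1 carries the limit of its shared exons. By union length, the lowest Has2 library in shTlr7, at 16.6 RPKM, was just above the highest Hyal2 library, at 16.1 RPKM.

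Genes with the most similar pattern were found by the root mean square difference of log2 CPM, each gene centred on its mean, over the 8 libraries and 10470 genes. The difference between the groups dominates this measure, and all genes share the same libraries. For Cd44 they were Mtss1 (0.028), Ank (0.0298) and Atxn7l3 (0.0313), with log2 fold changes of -0.55, -0.54 and -0.57. For Has2 they were Lgr6 (0.0561), Cyp1b1 (0.0603) and Acsl6 (0.0665), with log2 fold changes of -1.33, -1.43 and -1.39. Krt13 (0.111), Adgra1 (0.136) and Cxcr3 (0.143) were closest to Has3. Mien1 (0.0398), Trappc2l (0.0513) and Cdpf1 (0.0571) were closest to Hyal1. For Hyal2 they were Ranbp3 (0.0314), Sirt6 (0.0332) and Alas1 (0.0345), and for Has1 Cfap74 (0.0734), Purg (0.0989) and Ppp1r14c (0.123).

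Around these 7 genes, 56 further genes of the pathway were listed, of which 34 were tested. Of those, 13 were higher and 6 lower (55.9% called, against 56.1% of all tested genes), with a median log2 fold change of 0.02 beside 0.01 over all tested genes. Without both libraries numbered 4, 13 were higher and 9 lower, while calls over all tested genes rose as well, to 4213 higher and 4046 lower.

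Among enzymes that supply the sugar precursors, 4 of 8 tested genes were higher and 1 was lower (median log2 fold change 0.08). These calls cover 62.5% of the list, against 56.1% of all tested genes. The lower one was Ugdh, which encodes the dehydrogenase that makes UDP-glucuronic acid. It averaged 158 ± 8.98 CPM in shTlr7 and 291 ± 28.4 CPM in shCtrl (SD, n = 4 each; log2 fold change -0.88 ± 0.07 (SE), edgeR adjusted p = 4.07e-07), with every shTlr7 library below every shCtrl library. On the N-acetylglucosamine side, the pyrophosphorylase genes Uap1l1 and Uap1 rose by 0.52 and 0.14 and the kinase gene Nagk rose by 0.36 (log2 fold change; edgeR adjusted p = 1.21e-05, 0.00739 and 3.85e-04). The fourth higher gene was Gnpnat1, chosen after its values were seen, at 0.23 (edgeR adjusted p = 0.0255). Its call was lost without shCtrl replicate 1 (0.0781), shCtrl replicate 4 (0.0722) or shTlr7 replicate 3 (0.0775). Not called were Gfpt1 and Pgm3, both on the N-acetylglucosamine side, and Ugp2, also chosen after their values were seen. Their log2 fold changes were -0.02, -0.05 and 0.03 (edgeR adjusted p = 0.799, 0.510 and 0.676).

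Among other genes of hyaluronan breakdown, 2 of 5 tested were higher and 0 lower (median 0.02), so 40% were called, against 56.1% of all tested genes. One of the higher genes was Hyal3, described above. Hexa, the gene of a lysosomal exoglycosidase subunit, had a log2 fold change of -0.16 (edgeR adjusted p = 0.204). The beta-glucuronidase gene Gusb had one of -0.10 (edgeR adjusted p = 0.343), and was called lower when shCtrl replicate 4 (-0.19, edgeR adjusted p = 0.00382) or both libraries numbered 4 (-0.16, edgeR adjusted p = 0.00348) were left out, and by limma-voom (-0.16, limma adjusted p = 0.0198). The edgeR test counted 2 of the 5 at an unadjusted p under 0.05, and DESeq2 also called 0 lower. Cemip2, the transmembrane relative of Cemip and chosen after its values were seen, averaged 141 ± 4.75 CPM in shTlr7 and 139 ± 12.6 CPM in shCtrl (log2 fold change 0.02, edgeR adjusted p = 0.791).

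Other receptors went both ways, with 2 of 4 tested genes higher and 1 lower (median 0.28). That is 75% called, against 56.1% of all tested genes. Stab1, which encodes a scavenger receptor of the stabilin family, averaged 58.6 ± 7.47 CPM in shTlr7 and 138 ± 20.5 CPM in shCtrl (SD, n = 4 each; log2 fold change -1.23 ± 0.12 (SE), edgeR adjusted p = 2.25e-05). Tlr4 averaged 59.8 ± 10.6 CPM in shTlr7 and 35.0 ± 1.39 CPM in shCtrl, and Tlr2 averaged 63.8 ± 13.1 CPM in shTlr7 and 42.3 ± 1.99 CPM in shCtrl. These Toll-like receptors, which hyaluronan fragments are reported to engage, had log2 fold changes of 0.77 and 0.59 (edgeR adjusted p = 2.44e-04 and 0.00558). Hmmr, the gene of the receptor RHAMM, had one of -0.03 (edgeR adjusted p = 0.681). The endothelial receptor genes Lyve1 and Stab2, chosen after their values were seen, stayed near 0, at mean levels of 0 and 0.0465 CPM in shTlr7 and 0.0484 and 0.0804 CPM in shCtrl.

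Of 17 hyaluronan-binding matrix proteins, 3 passed the filter, and edgeR, DESeq2 and limma-voom each called 0 of them, with 0 at an unadjusted edgeR p under 0.05. They were the link protein genes Hapln4 and Hapln3, at log2 fold changes of 0.29 and 0.09, and the proteoglycan gene Vcan at -0.09 (edgeR adjusted p = 0.255, 0.728 and 0.832). All were near 1 CPM, and 95% intervals were correspondingly wide.

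Among 14 linkers, sheddases and splicing factors of CD44, all tested, 5 were higher and 4 lower (median -0.04, and 0.06 when scaled by library size only). Called in this list were thus 64.3%, against 56.1% of all tested genes. Without both libraries numbered 4, 5 were higher and 6 lower, beside 4213 higher and 4046 lower over all tested genes. Mmp14, which encodes a membrane metalloprotease that sheds CD44, averaged 354 ± 8.02 CPM in shTlr7 and 782 ± 15.7 CPM in shCtrl (SD, n = 4 each; log2 fold change -1.14 ± 0.04 (SE), edgeR adjusted p = 5.63e-11). Msn, the gene of moesin, which ties the tail of CD44 to actin, averaged 1969 ± 108 CPM in shTlr7 and 2852 ± 218 CPM in shCtrl (log2 fold change -0.53, edgeR adjusted p = 4.90e-06). Ank3, the gene of the membrane-skeleton linker ankyrin-G, had a log2 fold change of -0.71 (edgeR adjusted p = 2.39e-07). Cd74, whose product forms the receptor for the cytokine MIF together with CD44, rose by 0.76 (log2 fold change, edgeR adjusted p = 3.49e-06). The genes described next were chosen after their values were seen. The sheddase gene Adam17 was called higher at a log2 fold change of 0.12 (edgeR adjusted p = 0.0407), a call lost with DESeq2 and without shCtrl replicate 1. Adam10, also a sheddase gene, was not called (-0.05, edgeR adjusted p = 0.430). Nor were the linker genes Rdx and Nf2, at 0.03 and -0.03 (edgeR adjusted p = 0.529 and 0.560). Spp1, which encodes the CD44 and integrin ligand osteopontin, averaged 2106 ± 246 CPM in shTlr7 and 4409 ± 903 CPM in shCtrl (log2 fold change -1.07, edgeR adjusted p = 3.86e-04). Of the splicing factors that favour CD44 variant exons, Esrp2 rose by 0.49 (log2 fold change, edgeR adjusted p = 1.35e-05), and Esrp1 had a log2 fold change of -0.08 (edgeR adjusted p = 0.102). Esrp1 was called lower by limma-voom and when shTlr7 replicate 4 or both libraries numbered 4 were left out.

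**Figure D4:**
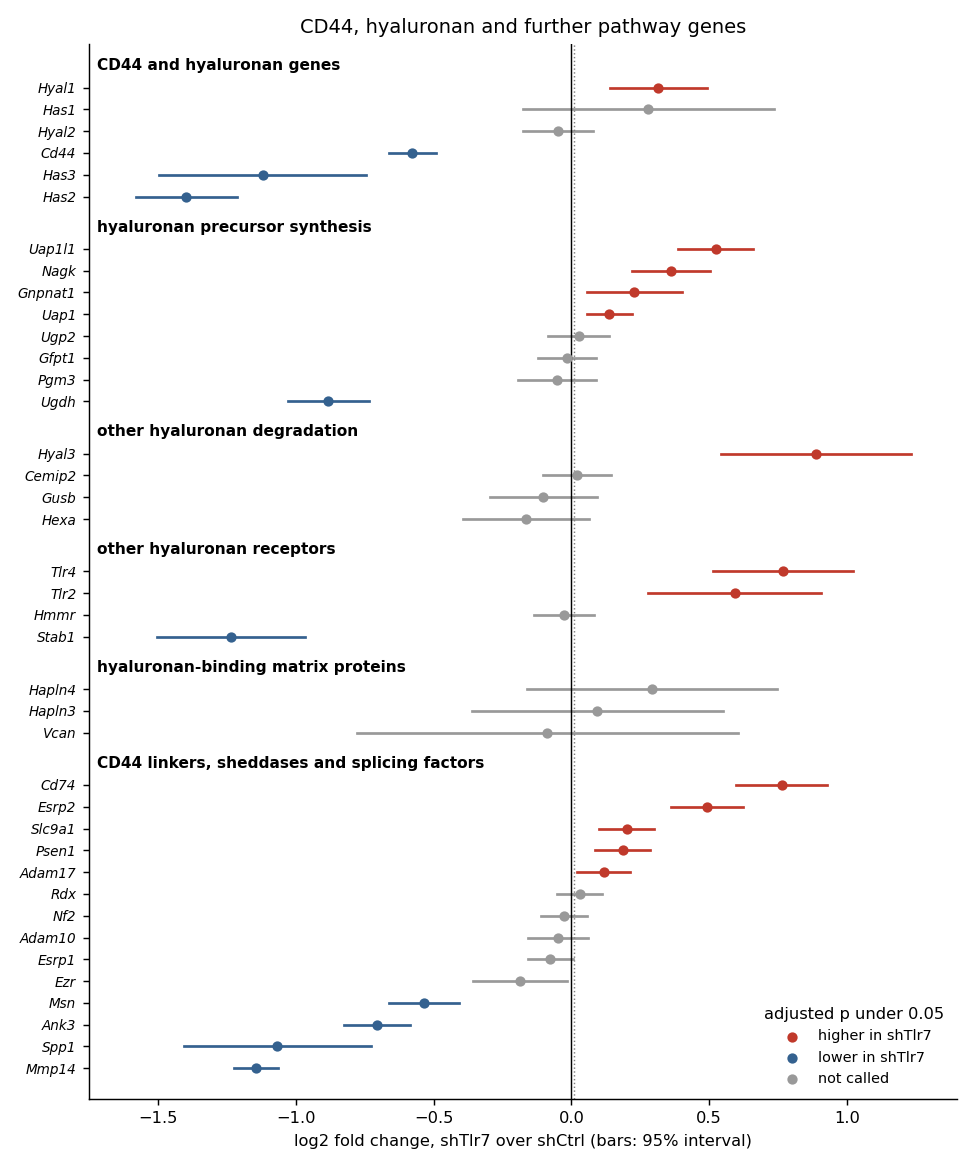
Log2 fold change of shTlr7 over shCtrl for the tested genes of 6 lists, 1 gene of hyaluronan breakdown left out, with the 95% interval as a bar. Red marks genes higher and blue genes lower in shTlr7 at an edgeR adjusted p under 0.05, grey genes that were not called, and the dotted line the median of all tested genes (0.01). Has2, Has3, Stab1, Mmp14 and Spp1 lie below -1, and no gene lies above 1.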

How the data were processed

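Per the labels' protocols, RNA was isolated from the spheroids with a Norgen total RNA kit and made into libraries with an Illumina TruSeq RNA kit. The authors deposited 1 table of raw counts, with a row per gene and a column for each library. STAR 2.7.5, DESeq2 1.32.0 and GRCm38 are named, without roles, per the submitters' processing notes. The counter, its strand setting and its annotation are not stated there. Groups and replicate numbers came from the sample titles. These do not mention separate cultures, so the p-values rest on a spread between libraries that may be technical. The genes and lists were chosen with earlier results of these data known.

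Rows were kept by filterByExpr, scaled by TMM and tested in edgeR 4.0.16 (R 4.3.3) by robust glmQLFit and glmQLFTest with group as the only term, after a check on simulated data. SE is the size of the log2 fold change over the root of F. CPM and RPKM used TMM-scaled library sizes. Coordinates are RefSeq's and exons GENCODE M21's, both GRCm38. Named are all 7 genes, the 4 tested genes of lowest p in each further list, and the 3 genes most like each tested member among genes whose average log2 CPM was 1 or more. A gene that this rule takes is not reported here. No 2 libraries of a group agreed within sampling noise (chi-square per degree of freedom 2.14 to 20.2). Alternatives were other scalings, filters and thresholds, DESeq2 1.42.0, limma-voom (limma 3.58.1), thinning to 18.1 M counts, summed gene copies, a replicate block, and libraries left out. The exon length was varied after seeing the data.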

Additional observations from a re-analysis of the deposited data

Results flagged for a closer look

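Among 26 named genes in 2 groups each, 52 groups of 4 libraries were screened for a library far from the other 3 (Dixon's criterion), which chance meets in about 1 in 20 groups, and 4 met it. Hyal2 stood at 52.8 CPM in shCtrl replicate 1, against 48.4 to 49.1 CPM in the other shCtrl libraries. Uap1 stood at 114 CPM in shCtrl replicate 2, against 107 to 108 CPM in the others. Gusb stood at 132 CPM in shCtrl replicate 4, against 168 to 175 CPM in the others, and Gusb was called lower when this library was left out, as it was by limma-voom with all 8 libraries. Stab1 stood at 69.7 CPM in shTlr7 replicate 4, against 54.1 to 56.0 CPM in the other shTlr7 libraries, all below shCtrl. The cause of these values was not tested.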

How the results depend on the processing

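The falls of Has2 and Has3 passed the threshold under all 21 alternatives, with log2 fold changes from -1.47 to -1.29 and from -1.31 to -1.01. The fall of Cd44 (-0.60 to -0.47) and the rise of Hyal1 (0.25 to 0.42) passed under all but the test against a 1.5-fold change, where both keep their values of -0.58 and 0.31 with an adjusted p of 1. That test calls 472 higher and 666 lower genes and, of the further lists, 0 higher genes in precursor synthesis, breakdown, receptors and CD44 linkers. It calls 4 genes of the further lists lower: Ugdh, Stab1 and the 2 CD44-linked genes Mmp14 and Spp1. Has1 passed with limma-voom (0.42), with the replicate number as a block (0.31, edgeR adjusted p = 0.0331), without both libraries numbered 4 (0.38) and without shCtrl replicate 4. Over single libraries left out, Has1 ranged from 0.13 to 0.49, and the lower genes of hyaluronan breakdown from 0 to 1. That count was 1 with limma-voom and without both libraries numbered 4. Without a filter on low counts, Lyve1, Ptx3 and the linker gene Ezr were also called lower, for counts of 2 lower receptors, 1 lower matrix protein and 5 lower linkers. Lyve1 had 5 counts in all, with 6 libraries at 0. Ezr, chosen after its values were seen, was not called in the reported test (-0.19, edgeR adjusted p = 0.0591) or with other scalings. It was called lower by DESeq2, by limma-voom, with the replicate block, with a filter of 1 CPM and without both libraries numbered 4. Leaving out shCtrl replicate 4, shTlr7 replicate 1 or shTlr7 replicate 3 alone also gave that call for Ezr. Scaling by library size only moved the median of all genes from 0.01 to 0.11 and the calls to 5513 higher and 2491 lower, against 3927 higher and 3590 lower. The replicate numbers were not taken to pair the samples: deviations of same-numbered libraries correlated at -0.00676 to 0.38, 3 of 4 over 0.1, and 2 of 4 shTlr7 libraries correlated best with their own number. With the number as a block, 4334 genes were higher and 4005 lower, and no call among the 7 genes other than that of Has1 changed. The share of Has2 among the synthases was 83.7 to 85.7% in shTlr7 and 93.8 to 94.8% in shCtrl under every alternative run on it.

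Low counts limit Cemip, for which a difference was not detectable at this depth. They also limit most matrix proteins, which did not pass the filter and so were not tested in the reported fit. Intervals from pooled counts cover counting error only. The tested values cover transcripts, and hyaluronan itself was not measured.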
